A study of Mus musculus with 30 samples.

Results

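The DNA replication and S phase genes analysed here are 52 genes chosen by name, out of 37991 gene identifiers in the count table. All 52 were found, and they fall into 8 roles. These are origin licensing (11 genes), activation of the replicative helicase (6), polymerases and primase (6), the sliding clamp with its loader and the maturation of new strands (11), nucleotide supply (5), E2F factors and cyclin E (5), chromatin inheritance (4), and fork protection and repair (4). A filter on low counts kept 50 of them among 11030 genes for testing. Orc1, the largest subunit of the origin recognition complex, with 145 counts in 20 libraries, and Fen1, the nuclease that trims Okazaki fragments, with 62 counts in 15 libraries, did not pass it.

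Cells copy their genome once per division. Origins are licensed in G1, when the origin recognition complex, Cdc6 and Cdt1 load the Mcm2 to Mcm7 ring onto DNA. In S phase Cdc45 and the GINS complex switch that ring on as a helicase, primase and polymerase alpha start each strand, and other polymerases extend it on the clamp Pcna. E2F factors drive transcription of most of these genes at the G1 to S transition, and cyclin E with Cdk2 starts S phase. In the spleen, red pulp macrophages are long-lived cells that recycle iron from old red blood cells, whereas blood monocytes arrive from dividing progenitors in the marrow.

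Groups came from 6 wild-type (WT) mice of the B6 strain and 6 TLR7.1 mice, all female and 9.4 to 15.7 weeks old, with no treatment named. TLR7.1 mice carry a Tlr7 transgene and express in excess this sensor of single-stranded RNA. Which cells the transgene is active in is not stated by the labels. Each library held 500 live CD45.2+ spleen cells without SiglecF or Ly6G. Mono, the Ly6Chi monocytes, were Ly6C+ Ccr2+ CD11b+. RPM, the red pulp macrophages, were Ly6C- with high VCAM, low CD31, F4/80 and no more than intermediate CD11b. iHPC, inflammatory hemophagocytes, were Ly6C- with high CD31, CD11b, low VCAM and low F4/80, and came from TLR7.1 mice only. Every mouse gave 1 library of each of its populations, so the 5 groups have n = 6, and the groups from 1 genotype share mice. WT iHPC were not part of the design, so a population and a genotype effect in iHPC cannot be told apart.

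Library totals ran from 95002 to 1932427 counts, and RPM libraries were the shallowest. A single count was worth 0.512 to 0.896 CPM (the count after scaling every library to a common total) in Mono libraries, 0.663 to 3.48 in iHPC, 0.763 to 3.95 in TLR7.1 RPM and 0.636 to 10.6 in WT RPM. A value of 0 in an RPM library can therefore stand for a low level. Defining markers followed the labels. The summed Mono markers (Ly6c2, Ccr2, Itgam, F13a1, Chil3 and Fn1) stood at 4424 to 6311 CPM in Mono of both genotypes and at 11.5 to 80.2 in RPM. RPM markers (Vcam1, Adgre1, Spic, Slc40a1, Cd163 and Hmox1) stood at 5588 to 14409 CPM in RPM, 631 to 919 in Mono and 1332 to 2120 in iHPC. Pecam1, which encodes CD31, had a median of 547 CPM in iHPC against 126 in RPM and 13.3 in Mono of the same mice. Below, levels are TMM-normalised CPM over the 6 libraries of a group. Differences are log2 fold changes ± SE, and a gene rose or fell only where edgeR's adjusted p was under 0.05.

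Replication genes were highest in RPM of TLR7.1 mice and lowest in cells of WT mice. Summed over all 52 genes, WT Mono held 1242 to 1595 CPM, with a median of 1307. WT RPM held 1245 to 2491, with a median of 1413. TLR7.1 Mono held 1915 to 3431, with a median of 2353, and all 6 lay above every WT Mono library. TLR7.1 RPM held 2372 to 5500, with a median of 4126, and only the lowest of them lay below the highest WT RPM library. iHPC held 1574 to 3100, with a median of 2434, a range that overlaps both other TLR7.1 groups. In bulk samples, fewer cells in S phase and less RNA per cell cannot be told apart, so these sums are not shares of cycling cells.

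**Figure D1:**
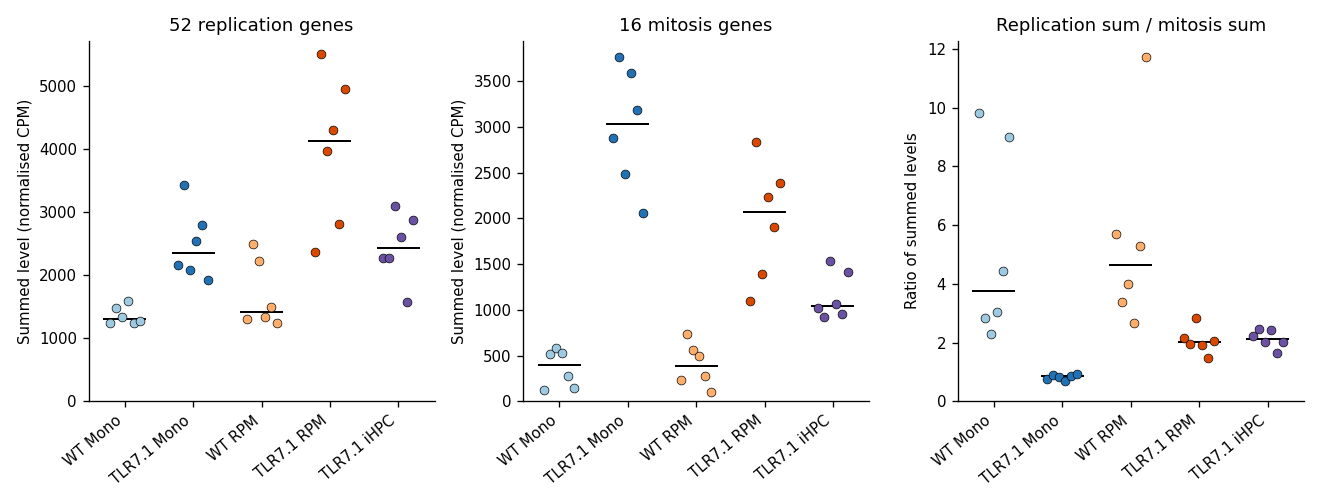
Summed level of the 52 replication genes (left), summed level of the 16 mitosis genes (middle) and the ratio of both (right), each on its own axis, with 1 point per library and a line at the group median. TLR7.1 RPM have the highest replication sums, with a median of 4126 CPM, whereas TLR7.1 Mono have the highest mitosis sums, with a median of 3036 CPM.

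The balance between replication and mitosis genes differed between populations of TLR7.1 mice. The mitosis list holds 16 genes, among them Mki67, Top2a, Ccnb1 and Cdc20, which act in G2 and mitosis. Its sum was 2059 to 3761 CPM in TLR7.1 Mono, 1096 to 2831 in TLR7.1 RPM and 926 to 1538 in iHPC. In WT cells it was far lower, at 127 to 579 CPM in Mono and 106 to 739 in RPM. Replication sum divided by mitosis sum was 0.709 to 0.930 in TLR7.1 Mono, below every library of TLR7.1 RPM (1.48 to 2.84) and of iHPC (1.66 to 2.45). These ranges of TLR7.1 RPM and iHPC overlap. In WT cells, with their low mitosis sums, the ratio was 2.31 to 9.81 (median 3.74) in Mono. In WT RPM it was 2.67 to 11.7 (median 4.64), so a high ratio does not stand for more cycling.

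**Figure D2:**
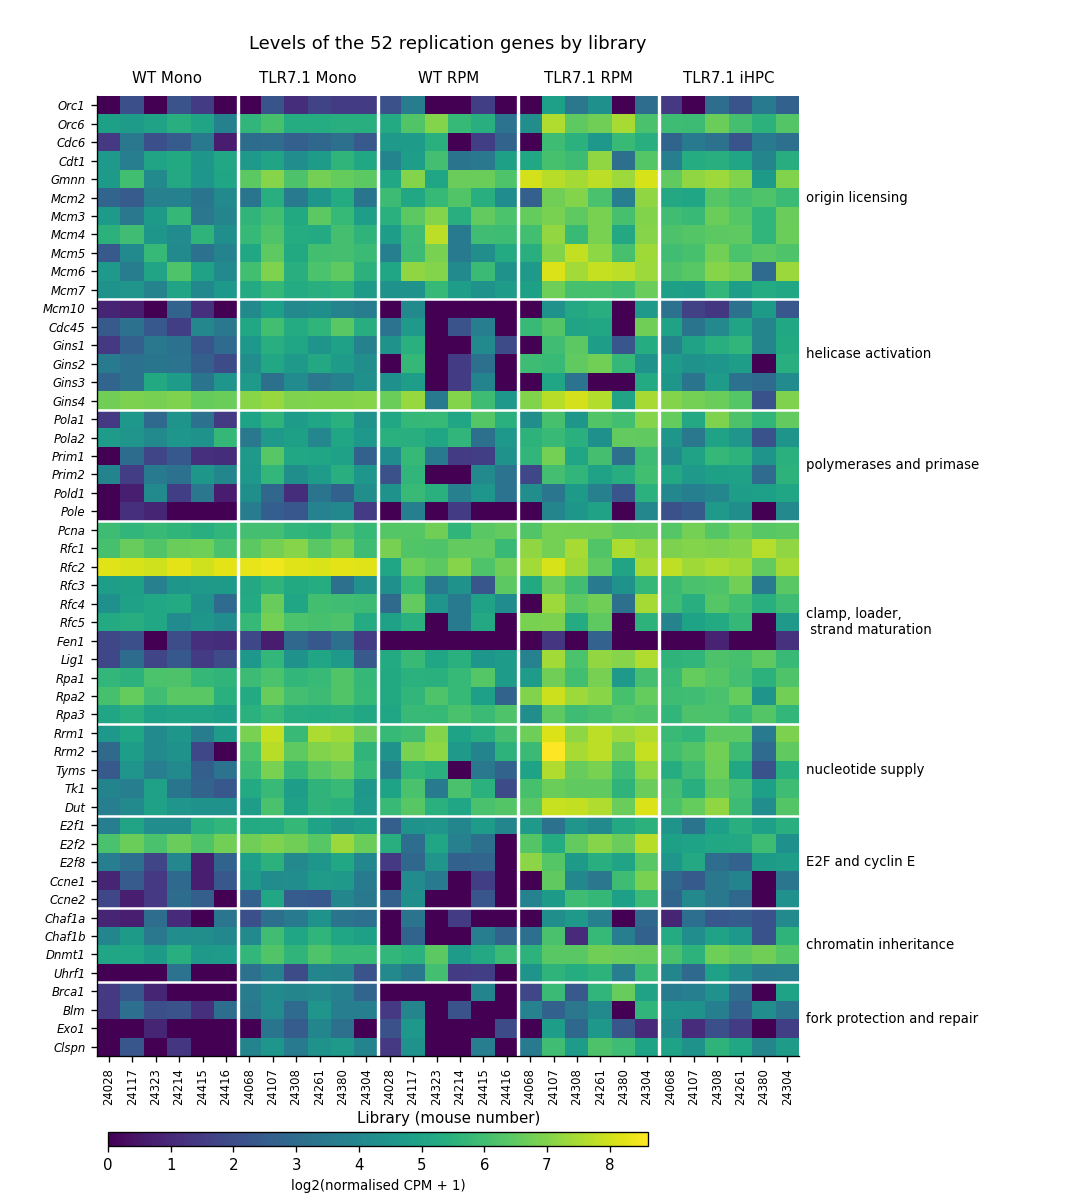
Level of each of the 52 replication genes in each of the 30 libraries, as log2 of normalised CPM plus 1, with genes grouped by role and libraries by group and mouse. Dark cells at 0 gather in the shallow WT RPM libraries and in the fork protection genes of WT Mono, and Rfc2 is brighter in all Mono libraries than in all RPM and iHPC libraries of the same genotype.

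Promoters are shown because most of these genes are known targets of E2F. Windows from 250 bases before to 50 bases after the start were found for 42 of the 52 genes in a RefSeq table of build GRCm38.p6. The E2F core was searched on both strands as TTCCCGC and in variant forms, first with TTGGCGC, further with TTCGCGC and lastly with TTGCCGC. It was present for 29 of these 42 genes (69%), against 20.1% of the 8214 tested genes with a window and 10.9% of all 27025 genes. A gene was counted once, with a match in any of its windows. With a further T in front, a stricter form contained in the first, the shares were 38.1%, 4.95% and 2.6%. The CHR element TTTGAA, known from genes of mitosis, was found for 16.7% of these members and 14.5% of these genes tested. Of the 14 mitosis genes with a window, 64.3% had it. CCAAT was found for 66.7% of these members against 43.2% of genes tested, and the GC box GGGCGG for 76.2% against 69.2%. These are matches of letters and not shown binding sites. The 120 bases before the start of 5 genes are given 5′ to 3′ on the strand of the gene, with the E2F core on either strand in capitals and overlapping matches merged. Mcm6 is shown as a licensing gene with 5 matches in its window, Prim1 as a primase gene, Rrm1 for nucleotide supply, and E2f8 and Rpa2 as genes that rose in TLR7.1 RPM.
Mcm6 (chr1:128359706-128359825, minus strand): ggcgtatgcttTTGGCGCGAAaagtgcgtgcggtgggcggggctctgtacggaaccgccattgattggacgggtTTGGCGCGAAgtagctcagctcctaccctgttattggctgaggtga
Prim1 (chr10:128015095-128015214, plus strand): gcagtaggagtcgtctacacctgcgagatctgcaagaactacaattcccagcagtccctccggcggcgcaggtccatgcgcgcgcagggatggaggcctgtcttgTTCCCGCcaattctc
Rrm1 (chr7:102441575-102441694, plus strand): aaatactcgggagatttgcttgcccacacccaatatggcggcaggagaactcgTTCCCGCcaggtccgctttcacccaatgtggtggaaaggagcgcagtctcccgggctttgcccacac
E2f8 (chr7:48881597-48881716, minus strand): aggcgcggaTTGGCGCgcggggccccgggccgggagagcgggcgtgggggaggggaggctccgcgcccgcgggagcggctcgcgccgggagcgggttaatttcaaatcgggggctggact
Rpa2 (chr4:132768240-132768359, plus strand): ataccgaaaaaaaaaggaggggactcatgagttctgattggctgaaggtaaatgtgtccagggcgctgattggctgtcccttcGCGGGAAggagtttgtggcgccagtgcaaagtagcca

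**Figure D3:**
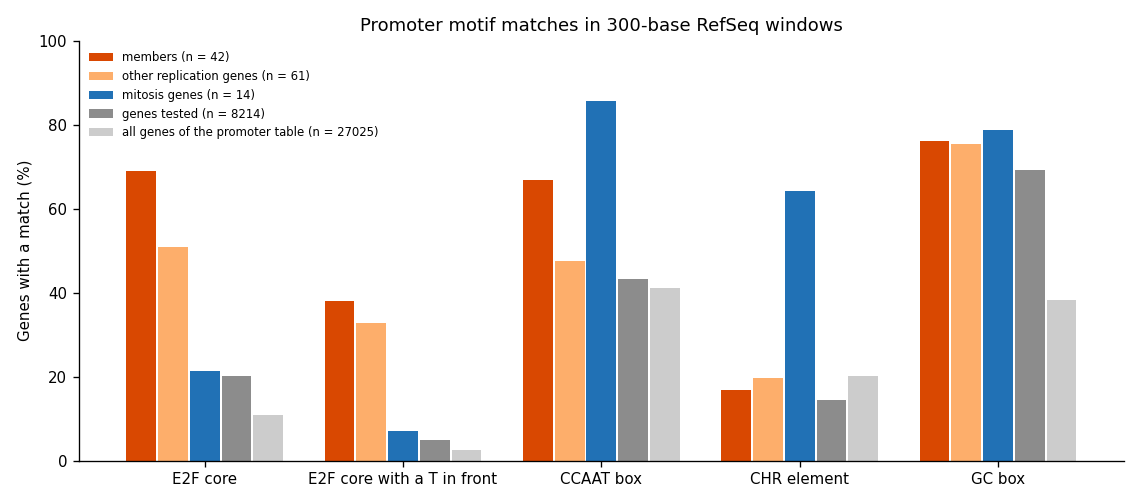
Share of genes with a match to each of 5 motifs in a promoter window, in percent. Sets are the replication genes, other replication genes, mitosis genes, genes tested and all genes with a window. The E2F core stands at 69% in the replication genes and 20.1% in genes tested, and the CHR element stands at 64.3% in mitosis genes.

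Monocytes of TLR7.1 mice held more replication mRNA than WT monocytes. Of 50 genes tested, 14 rose and 0 fell, against 1.8% of all genes that rose and 0.299% that fell. The median log2 fold change was 1.28, against -0.016 over all genes, and 47 of 50 were positive. DESeq2 called 21 higher and 0 lower, and 31 had an unadjusted p under 0.05. Nucleotide supply led with 4 of 5 genes higher, followed by fork protection with 3 of 4. Helicase activation and polymerases with primase had 2 of 6 each, and licensing had 1 of 10. All 16 mitosis genes rose, with a median of 3.15. On 13, 21 and 26 December the median difference was 1.61, 0.88 and 1.51, and 13 of the 14 genes had the same direction on every date. The count was 9 without TLR7.1 Mono of mouse 24107 and 8 without WT Mono of mouse 24415 or 24416. It was 24 when only these 2 groups were fitted.

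Some markers of other cells differed in the same direction. Granulocyte-monocyte progenitor markers summed to 28.8 to 73.2 CPM in WT Mono and 160 to 366 in TLR7.1 Mono, with 3 of 5 tested higher. Among them Prtn3 had a median of 26.7 and 102 CPM, and Mpo, a defining gene, 0 and 2.07. Neutrophil markers summed to 1.03 to 5.99 CPM in WT Mono and 68.4 to 1542 in TLR7.1 Mono, with 4 of 4 tested higher. Their part in the result was not tested.

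RPM of TLR7.1 mice, too, held more replication mRNA than those of WT mice. Of 50 genes, 20 rose and 0 fell in TLR7.1 RPM, against 4.48% of all genes that rose and 3.77% that fell. The median was 1.49, against -0.010 over all genes, and 49 of 50 were positive. DESeq2 called 22 higher and 0 lower, and 35 had an unadjusted p under 0.05. E2F factors and cyclin E had 4 of 5 genes higher, nucleotide supply 4 of 5, licensing 4 of 10 and polymerases with primase 0 of 6. Of the mitosis genes 10 of 16 rose, with a median of 2.11. All 20 genes, which were called from these same libraries, had the same direction on each of the 3 dates. On 21 December WT RPM was 1 library of 95002 counts, in which 35 members had a count. Without WT RPM of mouse 24117, which held the highest sum of its group (2491 CPM), 32 genes were called. When only both RPM groups were fitted, 41 members were tested and 6 were called. Without the 3 libraries under 300000 counts the number was 26.

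RPM gates of TLR7.1 mice also carried more of other cells' markers. Plasma cell markers summed to 33.9 to 1121 CPM in WT RPM, with a median of 150.2, and 136 to 2184 in TLR7.1 RPM, with a median of 1838. Of 6 tested, 2 were higher and 1 lower. Jchain, which links antibody chains, had a median of 4.79 CPM in WT and 1275 in TLR7.1 RPM. Erythroid markers summed to 212 to 3693 CPM in WT RPM and 2703 to 3648 in TLR7.1 RPM, with 10 of 15 higher, and Klf1, the red cell transcription factor, had a median of 9.67 and 145 CPM. B cell markers summed to 128 to 1113 and 362 to 1622 CPM, with 0 of 10 called. Megakaryocyte markers summed to 17.2 to 85.7 and 0 to 112 CPM, with 3 of 5 higher. WT RPM of mouse 24117 held the highest plasma cell sum of its group, 1121 CPM, beside its highest replication sum. TLR7.1 RPM of mouse 24107 held the highest plasma cell sum of its group, 2184 CPM, beside its highest replication sum, 5500 CPM. That library also held the group's highest T and NK cell sum (1192 CPM) and neutrophil sum (404 CPM). TLR7.1 RPM of mouse 24068 held 2054.5 CPM of plasma cell markers beside the lowest replication sum of the group, 2372 CPM. TLR7.1 RPM of mouse 24380 held the lowest plasma cell sum, 136 CPM, and 2815 CPM of replication genes, above all WT RPM libraries. That library had 268275 counts and the highest erythroid sum of its group, 3648 CPM. The part of these cells in the result was not tested.

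**Figure D4:**
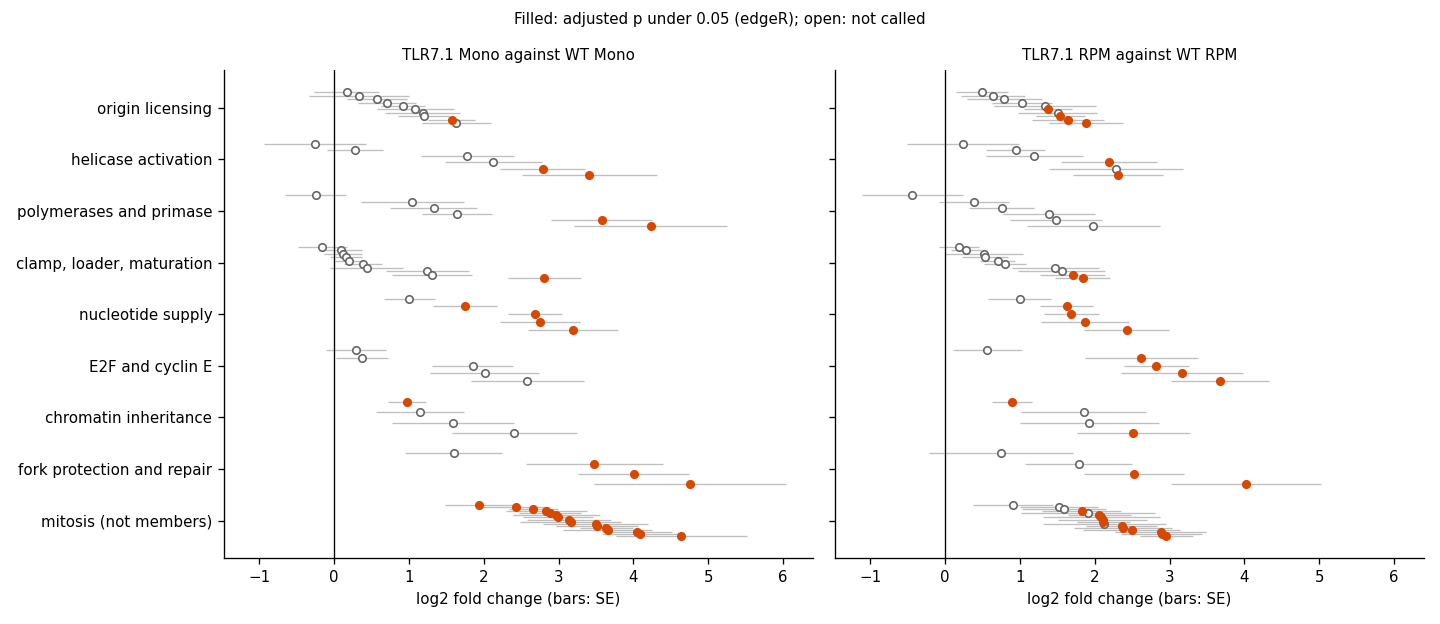
Log2 fold change with SE of each tested replication gene by role, and of the mitosis genes, for TLR7.1 against WT in Mono (left) and RPM (right), with filled points for genes called. In Mono 14 replication genes, spread over all roles but E2F and cyclin E, and all 16 mitosis genes are filled, and in RPM 20 replication genes are filled, 4 of them among E2F and cyclin E.

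Whether the genotype effect differed between RPM and Mono was tested as an interaction. Of 50 genes 2 were higher and 0 lower, against 0.399% and 0.29% of all genes. They were E2f2, with a difference of log2 fold changes of 2.46 ± 0.559, adjusted p = 0.0247, and Rpa2, with 2.0 ± 0.491, adjusted p = 0.0431. With mouse as a block E2f2 missed the threshold (2.63, adjusted p = 0.062), and 1 gene was called. E2f2 was also lost without TLR7.1 Mono of mouse 24261 or WT RPM of mouse 24415 (adjusted p 0.0507 to 0.0512), where 0 genes were left. Rpa2 was lost in 13 of 24 fits without 1 library (adjusted p 0.0528 to 0.0746) and with no filter on low counts (adjusted p 0.0562). These left out WT Mono of mouse 24028, 24117, 24214 or 24415, WT RPM of mouse 24028 or 24415, TLR7.1 Mono of mouse 24068, 24308, 24261, 24380 or 24304, and TLR7.1 RPM of mouse 24107 or 24308. In DESeq2 2 genes were higher and 0 lower, and 6 had an unadjusted p under 0.05. For the other 48 genes a difference between the genotype effects was not shown, also where only 1 population passed the test.

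Both genotypes had more replication mRNA in RPM than in Mono for part of the set. Of 50 genes 19 were higher and 1 lower in TLR7.1 RPM than in TLR7.1 Mono, against 23.9% and 22.6% of all genes, with a median of 0.83. In WT mice 17 were higher and 4 lower, against 23.7% and 22.5%, with a median of 0.81. All genes had medians of -0.033 and -0.021. Licensing genes were higher in 9 of 10 cases in TLR7.1 mice and in 3 of 10 in WT mice, and polymerases with primase had 1 of 6 in TLR7.1 and 4 of 6 in WT mice. A difference between genotypes in these counts was not tested. Of the erythroid markers 15 of 15 were higher in TLR7.1 RPM than in TLR7.1 Mono and 13 of 15 in WT mice. Of the B cell markers 10 of 10 and 6 of 10 were, and of the plasma cell markers tested 4 of 6 in each genotype. T and NK cell markers were higher in 5 of 5 tested in TLR7.1 mice and 3 of 5 in WT mice, and megakaryocyte markers in 5 of 5 and 1 of 5. T and NK cell markers summed to 1.85 to 35.9 CPM in TLR7.1 Mono and 23.3 to 1192 in TLR7.1 RPM. Their part in the result was not tested. Mitosis genes went the other way in TLR7.1 mice, with 0 higher and 6 of 16 lower, and in WT mice 2 were higher and 1 lower. The count of 20 in TLR7.1 mice was 13 without mouse 24308 and 11 without mouse 24304. By date, 16 of these 20 and 15 of the 21 WT calls kept their direction on every date. On 13, 21 and 26 December the TLR7.1 median was 0.27, 1.18 and 0.16, with 31, 46 and 28 of 50 genes positive. The WT median was 0.90, 0.41 and -0.23 on these dates, with 38, 27 and 22 of 50 positive.

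iHPC held less replication mRNA than RPM of the same mice. Of 50 genes 0 were higher and 13 lower, against 13.6% of all genes higher and 13.5% lower, and the median was -0.76, against -0.005 over all genes. E2F factors and cyclin E had 4 of 5 genes lower, nucleotide supply 3 of 5 and licensing 4 of 10. DESeq2 called 0 higher and 12 lower, and 19 had an unadjusted p under 0.05. Of the 13, 12 had the same direction on every date. On 13, 21 and 26 December the median was -0.14, -0.55 and -0.64, with 18, 13 and 16 of 50 genes positive. Markers of other cells moved here too. Plasma cell markers summed to 148 to 229 CPM in iHPC and 136 to 2184 in TLR7.1 RPM, with 3 of 6 lower. Erythroid markers summed to 712 to 2039 CPM in iHPC, with 9 of 15 lower than in TLR7.1 RPM. Of the B cell markers 6 of 10 fell. T and NK cell markers summed to 1.34 to 109 CPM in iHPC and 23.3 to 1192 in TLR7.1 RPM, with 4 of 5 tested lower. Markers of basophils and mast cells summed to 2.78 to 3073 CPM (median 1842) in iHPC and 0 to 5.21 in TLR7.1 RPM. Of these markers 2 of 2 tested were higher. Only the iHPC library of mouse 24261 was at 2.78 CPM, and all other iHPC libraries held 1605 to 3073 CPM. Mcpt8 had a median of 866 CPM in iHPC. Megakaryocyte markers summed to 139 to 247 CPM in iHPC and 0 to 112 in TLR7.1 RPM, with 0 of 5 called by edgeR and 3 at an unadjusted p under 0.05. Their part in the result was not tested.

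Against Mono of the same mice, iHPC showed calls in both directions. Of 50 genes 6 were higher and 3 lower, below the 19.3% and 19.4% of all genes, and the median was 0.12, against 0.005. Of the mitosis genes 0 were higher and 10 of 16 lower, with a median of -1.61. The count of 9 was 5 without mouse 24068, 24308 or 24304 and 4 without mouse 24261, and 19 when only both groups were fitted. By date the median was -0.13, 0.67 and -0.47, so its sign changed between dates, and 7 of the 9 genes kept their direction. Of the erythroid markers 13 of 15 were higher in iHPC, and of 5 granulocyte-monocyte progenitor markers tested 2 were higher and 3 lower. Markers of basophils and mast cells summed to 1.21 to 10.5 CPM in TLR7.1 Mono and 2.78 to 3073 (median 1842) in iHPC. Here too 2 of 2 tested were higher in iHPC. Megakaryocyte markers summed to 0 to 16.3 CPM in TLR7.1 Mono and 139 to 247 in iHPC, with 5 of 5 higher, and of the B cell markers 4 of 10 were higher. Their part in the result was not tested.

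**Figure D5:**
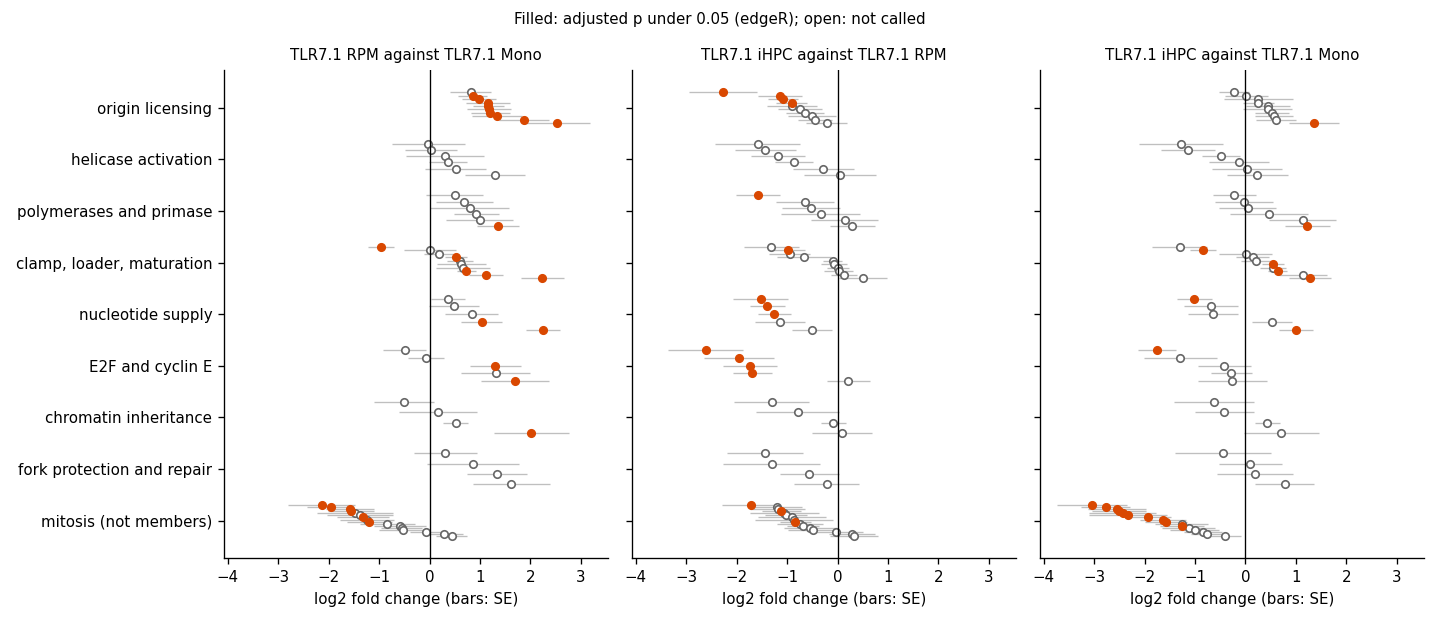
Log2 fold change with SE of each tested replication gene by role, and of the mitosis genes, between populations of TLR7.1 mice, with filled points for genes called. Points of iHPC against RPM lie mostly left of 0, with a median of -0.76, and those of RPM against Mono mostly right of 0 for replication genes, with a median of 0.83, and left of 0 for mitosis genes, with a median of -1.21.

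Origin licensing genes were highest in TLR7.1 RPM. Cdc6, which loads the Mcm ring, stood at 0 to 59.7 CPM (median 42.6) in TLR7.1 RPM, 4.24 to 8.11 CPM (median 6.93) in TLR7.1 Mono and 3.7 to 11.1 CPM (median 8.11) in iHPC. It was the licensing gene with the widest rise in RPM over Mono (2.52 ± 0.667, adjusted p = 0.00229) and fall in iHPC against RPM (-2.27 ± 0.680, adjusted p = 0.0113). In 5 of 6 TLR7.1 RPM libraries it lay above every Mono and iHPC library, and in mouse 24068 it was 0. Mcm6, a subunit of the ring, stood at 23.4 to 285 CPM (median 192) in TLR7.1 RPM and 42 to 121 CPM (median 67.4) in TLR7.1 Mono (1.34 ± 0.493, adjusted p = 0.0253). With mouse as a block this call was lost (1.22, adjusted p = 0.0608), as it was without mouse 24308, 24261 or 24304 (adjusted p 0.0649 to 0.0713) and with no filter on low counts (adjusted p 0.068). Mcm2, its partner, stood at 4.58 to 16.4 CPM (median 10.7) in WT Mono and 17.2 to 75.6 CPM (median 47.7) in WT RPM, which do not overlap (2.16 ± 0.535, adjusted p = 0.00118). In TLR7.1 mice Mcm2 also rose from Mono to RPM (1.87 ± 0.496, adjusted p = 0.00232). From Mono to iHPC it rose by 1.36 ± 0.494, adjusted p = 0.0279, a call lost without mouse 24068, 24308, 24261 or 24304 (adjusted p 0.0551 to 0.125). Gmnn, geminin, which blocks a second round of licensing, was highest in its role per length, at 73.1 CPM per kilobase over all libraries. It stood at 15.9 to 62.8 CPM (median 28.8) in WT Mono and 72.3 to 131 CPM (median 90.2) in TLR7.1 Mono, and at 32.1 to 127 CPM (median 86.8) in WT RPM and 163 to 271 CPM (median 209.7) in TLR7.1 RPM. Neither pair of groups overlaps (1.57 ± 0.317, adjusted p = 0.00222 in Mono and 1.38 ± 0.322, adjusted p = 0.00637 in RPM), and all iHPC libraries, at 24.7 to 163 CPM (median 126), lay, if only just, below all TLR7.1 RPM libraries (-0.91 ± 0.307, adjusted p = 0.0254). Mcm5, Mcm7 and Cdt1 also rose with genotype in RPM, by 1.88 ± 0.489, adjusted p = 0.0138, 1.54 ± 0.325, adjusted p = 0.00268 and 1.64 ± 0.480, adjusted p = 0.029. Mcm4 passed the test in no comparison.

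Genes of helicase activation were called with genotype and in none of the comparisons between populations. Cdc45, the factor that joins the ring to GINS, stood at 2.06 to 14.7 CPM (median 6.39) in WT Mono and 33.7 to 83.8 CPM (median 44.6) in TLR7.1 Mono, with no overlap (2.79 ± 0.566, adjusted p = 0.00229). In RPM it stood at 0 to 24.4 CPM (median 6.1) in WT and 0 to 107 CPM (median 44.5) in TLR7.1 mice, which overlap because mouse 24380 was at 0 (2.31 ± 0.599, adjusted p = 0.0137). Mcm10, which helps to open the helicase, stood at 0 to 5.67 CPM (median 0.755) in WT Mono and 11.5 to 28.3 CPM (median 15.8) in TLR7.1 Mono (3.41 ± 0.897, adjusted p = 0.0316). Although these groups do not overlap, the call was lost in 8 of 12 fits without 1 library, namely WT Mono of mouse 24028, 24117, 24323, 24415 or 24416 and TLR7.1 Mono of mouse 24107, 24261 or 24380 (adjusted p 0.0501 to 0.0958). Gins2 rose in TLR7.1 RPM (2.19 ± 0.639, adjusted p = 0.0287), but 67.3% of its exon bases lie in exons of Gse1 and its reads are uncertain. Gins4, highest per length of all 52 genes at 85.8 CPM per kilobase, stood at 94.1 to 123 CPM (median 109) in WT Mono and 124 to 155 CPM (median 128) in TLR7.1 Mono. Those ranges do not overlap, yet the difference of 0.28 ± 0.371, adjusted p = 1 was small and not called. Gins1, Gins3 and Gins4 passed the test in no comparison.

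Of the 6 polymerase and primase genes, 4 were higher in RPM than in Mono of WT mice. Prim1, the catalytic subunit of primase, stood at 0 to 7.19 CPM (median 1.89) in WT Mono, 5.45 to 81.3 CPM (median 31) in TLR7.1 Mono and 1.8 to 54 CPM (median 14) in WT RPM. It rose with genotype in Mono (3.58 ± 0.674, adjusted p = 0.00108) and from Mono to RPM in WT mice (2.79 ± 0.696, adjusted p = 0.00132), though each pair of ranges overlaps. Pola1, the catalytic subunit of polymerase alpha, stood at 1.71 to 22.9 CPM (median 7.51) in WT Mono and 32.4 to 79.7 CPM (median 47.6) in WT RPM, which do not overlap (2.19 ± 0.492, adjusted p = 0.000438). In iHPC, at 35.5 to 121 CPM (median 82.5), it was higher than in TLR7.1 Mono, at 19.99 to 48 CPM (median 32) (1.23 ± 0.445, adjusted p = 0.0276). That call was lost without mouse 24068, 24308, 24261 or 24304 (adjusted p 0.0544 to 0.127). Pola2, the second subunit of polymerase alpha, was at 19.2 to 91.7 CPM (median 51.3) in TLR7.1 RPM. In iHPC, at 3.52 to 30.2 CPM (median 21), it was lower than there (-1.58 ± 0.428, adjusted p = 0.00532). It was also higher in TLR7.1 RPM than in TLR7.1 Mono (1.36 ± 0.418, adjusted p = 0.008). Pold1, of polymerase delta, rose from 0 to 15.9 CPM (median 1.36) in WT Mono to 8.61 to 54.7 CPM (median 21.3) in WT RPM (2.47 ± 0.715, adjusted p = 0.00484), a call lost without mouse 24117 (adjusted p 0.0604). Pole, of polymerase epsilon, was called higher in TLR7.1 Mono and in WT RPM than in WT Mono, where all 6 libraries together held 3 counts, so no fold is given. Prim2 passed the test in no comparison.

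Among clamp, loader and maturation genes, Lig1 passed the test in 5 comparisons. Lig1, the ligase that joins Okazaki fragments, stood at 1.92 to 7.19 CPM (median 2.75) in WT Mono and 21.9 to 55.3 CPM (median 35) in WT RPM, which do not overlap (3.34 ± 0.506, adjusted p = 1.81e-06). In TLR7.1 mice it stood at 4.24 to 51.1 CPM (median 23.3) in Mono, 13 to 191 CPM (median 139.9) in RPM and 48.1 to 88 CPM (median 61.7) in iHPC. It rose with genotype in Mono (2.81 ± 0.488, adjusted p = 0.000432) and in RPM (1.70 ± 0.435, adjusted p = 0.0123), and from TLR7.1 Mono to RPM (2.23 ± 0.422, adjusted p = 5.01e-05) and to iHPC (1.29 ± 0.417, adjusted p = 0.014). The iHPC call was lost without mouse 24308 (adjusted p 0.0532). Pcna, the sliding clamp, stood at 46.1 to 73 CPM (median 58.7) in TLR7.1 Mono, 75.5 to 110.1 CPM (median 97.4) in TLR7.1 RPM and 79.3 to 112 CPM (median 83.1) in iHPC. Both were above all TLR7.1 Mono libraries (0.73 ± 0.192, adjusted p = 0.00224 for RPM and 0.64 ± 0.191, adjusted p = 0.00828 for iHPC), and the iHPC call was lost without mouse 24261 (adjusted p 0.0504). No change of Pcna with genotype was called (0.20 ± 0.190, adjusted p = 1 in Mono and 0.28 ± 0.200, adjusted p = 0.436 in RPM). Rfc2, a subunit of the clamp loader, had its highest medians in Mono. It stood at 252 to 306 CPM (median 280.3) in WT Mono and 276 to 341 CPM (median 298) in TLR7.1 Mono. RPM held less, at 32.7 to 131 CPM (median 94.6) in WT and 31.9 to 271 CPM (median 168) in TLR7.1 mice, and iHPC stood at 91.6 to 220.1 CPM (median 170.1). All Mono libraries lay above all RPM and iHPC libraries of their own genotype. It was lower in WT RPM than in WT Mono (-1.65 ± 0.281, adjusted p = 1.16e-05), in TLR7.1 RPM than in TLR7.1 Mono (-0.96 ± 0.262, adjusted p = 0.00302) and in iHPC than in Mono (-0.83 ± 0.259, adjusted p = 0.0105). The iHPC call was lost without mouse 24380 (adjusted p 0.0575). It and the TLR7.1 RPM call were also lost with every library thinned to the smallest (adjusted p 0.189 and 0.108), and 15.1% of Rfc2 exon bases lie in exons of Lat2. Rfc1, the large subunit of the same loader, was at 121 to 201 CPM (median 129.9) in iHPC and 59.97 to 129.97 CPM (median 96.7) in TLR7.1 Mono (0.54 ± 0.215, adjusted p = 0.0454), a call lost without mouse 24068, 24107, 24261, 24380 or 24304 (adjusted p 0.0567 to 0.169). It was also lost under 6 other settings, namely RLE scaling, no filter on low counts, a filter of 1 CPM, thinning, collection date as a covariate and without libraries under 300000 counts (adjusted p 0.0501 to 0.292).

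Within the single-strand binding protein RPA the subunits differed. Rpa2 stood at 42.8 to 94.2 CPM (median 75.3) in WT Mono and 5.74 to 74.9 CPM (median 43.2) in WT RPM, and at 37 to 96.6 CPM (median 62) in TLR7.1 Mono and 67.8 to 245 CPM (median 129.8) in TLR7.1 RPM. It fell from Mono to RPM in WT mice (-0.87 ± 0.361, adjusted p = 0.0467) and rose from Mono to RPM in TLR7.1 mice (1.12 ± 0.332, adjusted p = 0.00594). The WT fall was lost without mouse 24028, 24117, 24214, 24415 or 24416 (adjusted p 0.0609 to 0.141) and when only both WT groups were fitted (adjusted p 0.071). In RPM Rpa2 rose with genotype (1.84 ± 0.367, adjusted p = 0.00151), whereas in Mono the difference was -0.16 ± 0.328, adjusted p = 1 and not called. Rpa3, the small subunit and the highest of this role per length at 45.8 CPM per kilobase, rose from 28.1 to 42.5 CPM (median 31.4) in WT Mono to 32.7 to 74.6 CPM (median 56.9) in WT RPM (0.82 ± 0.268, adjusted p = 0.0125). Rpa1, the large subunit, and Rfc3, Rfc4 and Rfc5 passed it in no comparison.

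Of the 5 nucleotide supply genes 4 rose with genotype in Mono and 4 in RPM. Ribonucleotide reductase makes deoxynucleotides from a large subunit, Rrm1, and a small one, Rrm2. Rrm1 stood at 11.5 to 32 CPM (median 22.9) in WT Mono and 56 to 229.6 CPM (median 140.2) in TLR7.1 Mono, with no overlap (2.68 ± 0.365, adjusted p = 1.4e-05). In RPM it stood at 30.6 to 128 CPM (median 57.9) in WT and 104 to 283 CPM (median 178) in TLR7.1 mice (1.69 ± 0.374, adjusted p = 0.00401). iHPC, at 10.6 to 119 CPM (median 69.97), were lower than TLR7.1 RPM (-1.39 ± 0.347, adjusted p = 0.00257) and than TLR7.1 Mono (-1.01 ± 0.342, adjusted p = 0.0181). The difference from Mono was lost without mouse 24068, 24107, 24261 or 24380 (adjusted p 0.0548 to 0.124). Rrm2 had the same order of group medians, at 0 to 27.5 CPM (median 11.4) in WT Mono, 49.1 to 206 CPM (median 107) in TLR7.1 Mono, 13.9 to 139 CPM (median 34.7) in WT RPM, 57.3 to 389.9 CPM (median 197) in TLR7.1 RPM and 7.04 to 108 CPM (median 69.9) in iHPC. It rose with genotype in Mono without overlap (3.19 ± 0.601, adjusted p = 0.0011) and in RPM (1.87 ± 0.585, adjusted p = 0.0424), and from Mono to RPM in WT mice (2.16 ± 0.625, adjusted p = 0.00508). Its fall in iHPC against RPM (-1.52 ± 0.545, adjusted p = 0.0356) was lost without mouse 24107, 24261, 24380 or 24304 (adjusted p 0.0524 to 0.135), with no filter on low counts (adjusted p 0.0902) and in DESeq2 (adjusted p 0.0636).

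Tyms, which makes thymidylate, stood at 4.28 to 21.6 CPM (median 10.2) in WT Mono and 51.9 to 117 CPM (median 69.5) in TLR7.1 Mono, with no overlap (2.75 ± 0.539, adjusted p = 0.00156). It also rose in RPM, from 0 to 51.5 CPM (median 11) to 31.2 to 191 CPM (median 106) (2.43 ± 0.567, adjusted p = 0.00626). When only both RPM groups were fitted this call was lost (adjusted p 0.0622). Dut, which removes dUTP, differed between the 3 populations of TLR7.1 mice. It stood at 24.2 to 68.9 CPM (median 36.5) in TLR7.1 Mono, 83.3 to 287 CPM (median 207) in TLR7.1 RPM and 17.6 to 144 CPM (median 74.7) in iHPC. All TLR7.1 RPM libraries lay above all Mono (2.24 ± 0.341, adjusted p = 1.77e-06), and the iHPC median lay between both (-1.25 ± 0.331, adjusted p = 0.00426 against RPM and 0.99 ± 0.335, adjusted p = 0.0177 against Mono). The difference between iHPC and Mono was lost without mouse 24308 or 24304 (adjusted p 0.0635 to 0.154). Tk1, thymidine kinase, rose from 4.1 to 29.2 CPM (median 10.5) in WT Mono to 2.87 to 70.2 CPM (median 37.4) in WT RPM (1.79 ± 0.444, adjusted p = 0.00121) and 23 to 56.6 CPM (median 42.2) in TLR7.1 Mono (1.75 ± 0.428, adjusted p = 0.0164).

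Of the 5 E2F and cyclin E genes, 4 were higher in TLR7.1 RPM than in WT RPM and 4 were lower in iHPC than in TLR7.1 RPM. E2f2, an activator of S phase genes, stood at 0 to 41.3 CPM (median 10.3) in WT RPM and 38 to 204 CPM (median 96.4) in TLR7.1 RPM (2.82 ± 0.439, adjusted p = 0.000129). In Mono it stood at 70.1 to 109 CPM (median 86.3) in WT and 82.1 to 159.5 CPM (median 107) in TLR7.1 mice and was not called (0.37 ± 0.349, adjusted p = 1). All WT Mono libraries lay above all WT RPM (-2.53 ± 0.434, adjusted p = 1.3e-05). In iHPC, at 18.8 to 59.9 CPM (median 33.1), it was lower than in TLR7.1 RPM (-1.69 ± 0.381, adjusted p = 0.000917) and lay below all TLR7.1 Mono (-1.76 ± 0.376, adjusted p = 0.000321), and both iHPC calls were lost with every library thinned to the smallest (adjusted p 0.0703 and 0.0724). E2f8, a repressor that is itself an E2F target, stood at 0 to 21.4 CPM (median 5.69) in WT RPM and 24.9 to 138 CPM (median 61.2) in TLR7.1 RPM, with no overlap (3.67 ± 0.655, adjusted p = 0.000502). In iHPC, at 5.55 to 35.5 CPM (median 23.3), it was lower (-1.73 ± 0.533, adjusted p = 0.0136), a call lost without mouse 24068 (adjusted p 0.0708). E2f1, the best known activator of the family, passed the test in no comparison, with group medians of 17.5 to 34.4 CPM.

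Both cyclin E genes, whose products start S phase, had their highest median in TLR7.1 RPM. Ccne1 stood at 0 to 16.7 CPM (median 0.996) in WT RPM, 0 to 118 CPM (median 37.5) in TLR7.1 RPM and 0 to 13.9 CPM (median 8.07) in iHPC. It rose with genotype in RPM (3.17 ± 0.815, adjusted p = 0.0129) and was lower in iHPC than in TLR7.1 RPM (-2.61 ± 0.740, adjusted p = 0.00737), although TLR7.1 RPM of mouse 24068 was at 0. With mouse as a block the iHPC difference missed the threshold (-2.30, adjusted p = 0.0501), as it did without mouse 24304 (adjusted p 0.0517). Ccne2 stood at 0 to 18.7 CPM (median 1.99) in WT RPM, 4.19 to 34.5 CPM (median 7.79) in TLR7.1 Mono, 13 to 59.6 CPM (median 40.05) in TLR7.1 RPM and 0 to 19.5 CPM (median 8.14) in iHPC. It rose with genotype in RPM (2.62 ± 0.753, adjusted p = 0.0264), a call lost without WT RPM of mouse 24214, 24415 or 24416 (adjusted p 0.0541 to 0.0595) and when only both RPM groups were fitted (adjusted p 0.0773). Its rise from TLR7.1 Mono to RPM (1.70 ± 0.672, adjusted p = 0.0371) was lost without mouse 24068, 24308, 24261 or 24304 (adjusted p 0.0515 to 0.142) and with no filter on low counts (adjusted p 0.0594). Its fall in iHPC (-1.96 ± 0.692, adjusted p = 0.0323) was lost without mouse 24068, 24308, 24261 or 24380 (adjusted p 0.0510 to 0.104) and without the libraries under 300000 counts (adjusted p 0.0576).

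Chromatin inheritance genes restore histones and DNA methylation behind the fork. Dnmt1, the maintenance methyltransferase and the highest of this role per length at 8.40 CPM per kilobase, stood at 23.7 to 42.2 CPM (median 29.9) in WT Mono and 48.4 to 75.7 CPM (median 55.8) in TLR7.1 Mono, with no overlap (0.97 ± 0.250, adjusted p = 0.0266). It also rose in RPM, from 25.2 to 85.6 CPM (median 48) to 46.9 to 106 CPM (median 90.5) (0.90 ± 0.268, adjusted p = 0.0331). Uhrf1, which brings Dnmt1 to new DNA, stood at 2.91 to 14.4 CPM (median 10.8) in TLR7.1 Mono and 12 to 55.8 CPM (median 42.9) in TLR7.1 RPM (2.02 ± 0.747, adjusted p = 0.0261). Without mouse 24308 or 24304 this call was lost (adjusted p 0.0757 to 0.0953). In WT mice Uhrf1 was at 0 to 8.76 CPM (median 0) in Mono and 0 to 64.2 CPM (median 6.14) in RPM (2.57 ± 0.922, adjusted p = 0.0215), a call lost without mouse 24028, 24117 or 24323 (adjusted p 0.0624 to 0.127) and without the libraries under 300000 counts (adjusted p 0.0755). Chaf1b, a subunit of the histone chaperone CAF-1, was lower in WT RPM, at 0 to 12 CPM (median 2.87), than in WT Mono, at 10.03 to 24.8 CPM (median 16.4) (-1.88 ± 0.746, adjusted p = 0.0376). That call was lost without mouse 24028, 24117, 24214 or 24416 (adjusted p 0.0585 to 0.110). In TLR7.1 RPM Chaf1b stood at 1.08 to 69 CPM (median 9.89) and was higher than in WT RPM (2.52 ± 0.752, adjusted p = 0.0333). In limma voom with mouse as a random block this rise was not called (1.90, adjusted p = 0.179). That fit changed both the method and the block, so their parts cannot be told apart. In edgeR the rise was also lost without WT RPM of mouse 24028 or 24214 or TLR7.1 RPM of mouse 24107 or 24261 (adjusted p 0.0664 to 0.145). Chaf1a, its partner, was not called in any comparison, and 52.5% of its exon bases lie in exons of Ubxn6.

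Fork protection genes were near the detection limit in WT cells. Clspn, claspin, which passes the signal of stalled forks to the checkpoint kinase, stood at 0 to 3.92 CPM (median 0) in WT Mono and 10.5 to 23.4 CPM (median 16.9) in TLR7.1 Mono, with no overlap (4.0 ± 0.744, adjusted p = 0.000938). In RPM it stood at 0 to 19.9 CPM (median 0.860) in WT and 10.4 to 72.8 CPM (median 45.5) in TLR7.1 mice (2.53 ± 0.670, adjusted p = 0.0158), a call lost when only both RPM groups were fitted (adjusted p 0.108). Brca1, which protects stalled forks and repairs breaks, was at 0 in 5 of 6 WT RPM libraries and at 13.9 CPM in mouse 24415. In TLR7.1 RPM it stood at 2.6 to 95.7 CPM (median 39.7) (4.02 ± 0.998, adjusted p = 0.0102). In Mono it stood at 0 to 3.92 CPM (median 0.418) in WT and 6.06 to 16 CPM (median 13.3) in TLR7.1 mice, with no overlap (3.48 ± 0.911, adjusted p = 0.0309). The Mono call was lost in 8 of 12 fits, those without WT Mono of mouse 24028, 24323, 24214, 24415 or 24416 or TLR7.1 Mono of mouse 24107, 24261 or 24380 (adjusted p 0.0549 to 0.0982). Exo1, a nuclease of mismatch repair, was called higher in TLR7.1 Mono and in WT RPM than in WT Mono, which held 1 count in all, so no fold is given. Blm, a helicase that resolves crossed strands, was not called in any comparison.

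A wider list held 76 other replication genes, of which 72 were tested. In TLR7.1 Mono 7 of 72 rose and 0 fell, with a median of 0.34, against 1.8% and 0.299% of all genes. In TLR7.1 RPM 17 rose and 1 fell, with a median of 0.67, against 4.48% and 3.77%. In TLR7.1 mice 18 were higher and 8 lower in RPM than in Mono, against 23.9% and 22.6%, and in iHPC 4 were higher and 10 lower than in RPM, against 13.6% and 13.5%. A difference between this list and the 52 genes was not tested. Tfdp2, a partner of E2F factors, stood at 4.63 to 18 CPM (median 8.66) in TLR7.1 Mono, 115 to 296 CPM (median 175) in TLR7.1 RPM and 44.3 to 171 CPM (median 111) in iHPC. All TLR7.1 RPM and iHPC libraries thus lay above all TLR7.1 Mono (3.49 ± 0.442, adjusted p = 1.01e-07 for iHPC). Rb1, which restrains E2F, was highest in iHPC, at 331 to 442 CPM (median 364), above all TLR7.1 RPM, at 91 to 208 CPM (median 143) (1.35 ± 0.182, adjusted p = 6.01e-07), and all TLR7.1 Mono, at 107 to 122 CPM (median 117) (1.68 ± 0.180, adjusted p = 3.37e-09). Samhd1, which degrades deoxynucleotides, stood at 1287 to 1495 CPM (median 1411) in TLR7.1 Mono, 468 to 669 CPM (median 524) in RPM and 499 to 729 CPM (median 569) in iHPC. It was lower in both than in Mono (-1.35 ± 0.124, adjusted p = 7.6e-11 and -1.26 ± 0.124, adjusted p = 4.9e-10) and did not pass the test with genotype (-0.04 ± 0.121, adjusted p = 1 in Mono and -0.08 ± 0.125, adjusted p = 0.761 in RPM). Rrm2b, the reductase subunit used outside S phase, was higher in iHPC than in TLR7.1 Mono (1.02 ± 0.413, adjusted p = 0.0478). Cdk2, the kinase of cyclin E, was not called in any comparison, with group medians of 44.0 to 65.1 CPM. Skp2, which marks cell cycle inhibitors for destruction, was lower in iHPC than in TLR7.1 RPM (-1.72 ± 0.436, adjusted p = 0.00286), and Timeless, a fork protection factor, fell likewise (-1.98 ± 0.675, adjusted p = 0.0267). Dna2, a nuclease and helicase of Okazaki fragments, was higher in Mono than in RPM and iHPC of the same genotype. It stood at 112 to 219 CPM (median 185) in TLR7.1 Mono and 0 to 31.8 CPM (median 9.7) in TLR7.1 RPM (-3.67 ± 0.483, adjusted p = 1.42e-07).

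S and G2 markers put a second scale beside the set. Ccna2, cyclin A, stood at 0.855 to 41.8 CPM (median 14) in WT Mono, 132 to 267 CPM (median 212) in TLR7.1 Mono and 23.4 to 177 CPM (median 63.5) in TLR7.1 RPM. It rose with genotype in Mono (3.51 ± 0.521, adjusted p = 4.28e-05) and was lower in TLR7.1 RPM than in TLR7.1 Mono (-1.33 ± 0.476, adjusted p = 0.0213). Mki67, a mark of cycling cells, rose with genotype in Mono (2.66 ± 0.327, adjusted p = 2.76e-06) and RPM (2.96 ± 0.354, adjusted p = 2.1e-06) and was lower in iHPC than in RPM (-0.84 ± 0.307, adjusted p = 0.0395). Top2a, which untangles DNA, did likewise with genotype (3.64 ± 0.356, adjusted p = 3.85e-08 in Mono and 2.11 ± 0.351, adjusted p = 0.000246 in RPM). Kif11, a spindle motor, was the 1 mitosis gene with a genotype effect called smaller in RPM than in Mono (-3.19 ± 0.722, adjusted p = 0.0247). Cdc20, which starts anaphase, was lower in TLR7.1 RPM, at 0 to 80.6 CPM (median 15.2), than in TLR7.1 Mono, at 107 to 185 CPM (median 139.8), with no overlap (-2.14 ± 0.656, adjusted p = 0.00781).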

How the data were processed

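RNA from 500 sorted spleen cells per library was made into full-length cDNA with SMART-Seq v4 and into libraries with Nextera XT, per the labels' protocols. Per the submitters' processing notes, the tools were Bowtie, TopHat, SAMtools, Picard, FastQC, CASAVA 1.8.2 and HTSeq 0.4.1, on build NCBIM37. No role, order, annotation, strand setting or read filter is stated there. The authors deposited a table of raw counts, whole numbers per Ensembl identifier in 30 libraries with no normalization, and 0 columns were left unmapped. Symbols came from GENCODE M21 for 32919 of 37991 identifiers (99.11% of counts). Since strand use is not stated, overlap of members' exons with exons of other genes was computed from that annotation, and 3 members exceeded 25%.

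Genes were kept by filterByExpr with the groups given. One edgeR 4.0.16 quasi-likelihood model with TMM scaling, robust dispersion and a mean for each group covered all 30 libraries (R 4.3.3, limma 3.58.1). Two-sided p-values were adjusted over 11030 genes (Benjamini-Hochberg) and called under 0.05, and the code was checked on simulated counts. The interaction subtracts the genotype effect in Mono from that in RPM. Levels per kilobase use GENCODE exon length. Members reached at most 0.195 reads per exonic base, where the densest gene of at least 500 bases reached 1.59.

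Same-numbered libraries come from the same mouse, per the labels, which pairs them. Correlations of their residuals ran from -0.0795 to 0.196 over 24 pairs, with 2 over 0.1, and 0 pairs of libraries were identical. Values by collection date compare means of log2(CPM + 1) within each date. A group had 1 to 3 libraries per date, and WT Mono and WT RPM had 1 each on 21 December. Since the calls used the same libraries, the dates are not independent repeats of them. Named members are up to 8 called per direction and comparison with the largest change and a mean of 10 CPM or more in either group, and the highest per length of each role. Context genes are up to 4 per direction by the same rule, with Samhd1, Rrm2b, Cdk2, Ccna2, Mki67 and Top2a; a selection of those is given. Further members named for their calls, or for the lack of one, were chosen after their values were seen. Members and lists were chosen with earlier results of these data known. Alternatives were RLE scaling, other filters, DESeq2 1.42.0, only the groups compared, thinning, collection date, a mouse block, leaving out shallow libraries and leaving out each replicate.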

Additional observations from a re-analysis of the deposited data

Results flagged for a closer look

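Levels of named members and role sums were screened for a library far from the other 5 of its group. Of 165 groups of values tested, 23 had one, and chance flags about 1 in 20. Of these, 11 lie in the iHPC library of mouse 24380, with 292507 counts. It was the lowest for Ccne1 (0 CPM), Ccne2 (0), Gins4 (3.52), Gmnn (24.7), Mcm6 (7.04), Rfc2 (91.6), Rpa2 (21.1), Rrm1 (10.6), Rrm2 (7.04) and Tyms (3.52) and the highest for Rfc1 (200.7). The other iHPC libraries held 72.5 to 158 CPM of Mcm6 and 59.2 to 108 of Rrm2.

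TLR7.1 RPM of mouse 24068 was the lowest of its group for Cdc6 (0 CPM), Dnmt1 (46.9), Lig1 (13.0), Mcm6 (23.4) and Rpa3 (18.2). The other 5 held 161 to 285 CPM of Mcm6 and 71.5 to 191 of Lig1. TLR7.1 RPM of mouse 24380 was the lowest for Cdc45 (0 CPM) and Gins4 (31.9). Single flags were Brca1 in WT RPM of mouse 24415 (13.9 CPM, the others 0) and in TLR7.1 Mono of mouse 24304 (6.06, the others 11.2 to 16.0). Mcm10 was 16.1 CPM in WT RPM of mouse 24117, where the others held 0, and Uhrf1 8.76 in WT Mono of mouse 24214, where the others held 0. Rpa3 was 42.5 CPM in WT Mono of mouse 24117, where the others held 28.1 to 32.5.

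The difference between the genotype effects in RPM and Mono was called by edgeR for 4 of the genes read here. As RPM minus Mono it was 2.46 on the log2 scale for E2f2, 2.0 for Rpa2, 1.22 for Rb1 and -3.19 for Kif11.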

How the results depend on the processing

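Counts of members called under RLE scaling, a filter of 1 CPM in 6 libraries, DESeq2, collection date as a covariate and without libraries under 300000 counts stayed within 1.5 times the reported ones. Fitting only the groups compared gave 19 calls for iHPC against Mono (9 reported), 24 for TLR7.1 against WT Mono (14) and 6 for TLR7.1 against WT RPM (20). Thinning every library to 95002 counts left 10 members to test, and the counts were 1 for iHPC against RPM (13 reported), 2 for iHPC against Mono (9), 2 for TLR7.1 RPM against Mono (20), 7 for WT RPM against Mono (21), 1 for the genotype in Mono (14), 4 in RPM (20) and 0 for the interaction (2). Among named members still tested after thinning, 11 calls were lost, of E2f2 (3), Rrm2, Rfc2 and Rpa2 (2 each), Mcm6 and Rfc1 (1 each). Calls of named members that thinning left untested are not in this count. The interaction gave 1 call with no filter on low counts. With mouse as a replicate block the counts were 11, 11, 16, 21, 19, 19 and 1 in the same order, and of the named members Ccne1, Mcm6, E2f2 and Chaf1b lost 1 call each, as given above. For both genotype comparisons this fit used limma voom in place of edgeR, with mouse as a random block. Leaving out each replicate moved the counts over 9 to 14, 4 to 7, 11 to 21, 15 to 23, 8 to 15, 15 to 32 and 0 to 2. Of 56 named fold changes, 31 kept their call in every such run. In the 925 values obtained under the alternatives 0 changed sign. A named member that was not tested under an alternative gave no value there and was not counted as lost. The cause of these shifts was not tested beyond the number of genes or libraries left. Depth limits the low genes most: 35 to 50 members had a count in a WT RPM library.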
